A study of Mus musculus with 9 samples.

Results

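The 10 genes described here are used as markers of T cells and natural killer (NK) cells, and they were measured in erythroid cells sorted from mouse bone marrow. They were chosen by name (Cd2, Cd3e, Cd3g, Il7r, Tcf7, Gzma, Nkg7, Klrd1, Lck and Il2rb), and all 10 had a row among the 23285 genes of the deposited table. The RNA-seq data hold 9 libraries from C57BL/6 mice, which fall into 3 groups of 3. KOb cells came from TRIM28(flox/flox):Mx1Cre mice and were sorted as CD71(hi)TER119-, and are labelled severely deleted, with 1 to 4% of the floxed gene left undeleted per the series description. KOa cells came from mice of the same genotype and were sorted as CD71(hi)TER119+. They are labelled modestly deleted, with 5 to 8% of the gene left. FFa cells, the control, came from TRIM28(flox/flox) mice without Cre and were sorted as CD71(hi)TER119+. Cre was induced with 5 doses of poly(I:C), and cells were taken 2 weeks after the course ended, per the series description. Whether FFa mice received poly(I:C), and the age of the animals, are not given in the labels. The Mx1 promoter that drives Cre responds to interferon in many cell types of the bone marrow and other tissues, so deletion is not restricted to erythroid cells. Cre and the deletion differ together between the mutants and FFa and cannot be told apart. In KOb against FFa the TER119 gate differs along with them, so the gate cannot be told apart from Cre and deletion there. Between KOb and KOa the gate and the degree of deletion differ together and cannot be told apart either.

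T cells recognise antigen through a receptor whose signalling part is the CD3 complex, and the kinase LCK starts the signal. NK cells and cytotoxic T cells kill target cells with proteins stored in granules, and NK cells read their targets through lectin-like receptors. The cytokines IL-2, IL-7 and IL-15 keep these lymphocytes alive through receptors that share chains. Several of the 10 genes are not exclusive to T and NK cells: IL7R is also the receptor of B cell precursors, and CD2 is also found on mouse B cells.

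The values are FPKM (fragments scaled by transcript length and by mapped fragments), a level that can be compared between genes, and the authors gave 1 FPKM per gene and group. No SD can be given, the overlap of libraries between groups cannot be seen, and the depth of each library is unknown. A gene is counted as called where the test in the authors' deposited table was completed and its q-value was below 0.05, and only a called gene is said to rise or fall. A log2 ratio is that of the mutant FPKM over the other group's FPKM, and the error after ± is the standard error implied by the deposited statistic. The deleted gene Trim28 had 4.76 FPKM in KOb and 6.64 FPKM in KOa, against 26.0 FPKM in FFa, which is 18.3% and 25.5% of the control. Between KOb and KOa its log2 ratio of -0.48 ± 0.32 was not called (q = 0.0535 in the authors' deposited table). Tfrc, the gene of CD71, on which the cells were sorted, had 61.8 FPKM in KOb and 62.5 FPKM in KOa, against 81.4 FPKM in FFa. The 10 genes were far below this, between 0.286 and 10.2 FPKM in any group.

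The windows around the start of 4 of the 10 genes are shown because Il7r, Gzma and Nkg7 were called in both mutants, Nkg7 in the opposite direction to Il7r and Gzma, while Cd3g was called in KOb and not in KOa. The sequences are those of RefSeq on GRCm38.p6, from 250 bases before to 50 bases after the annotated start, read 5′ to 3′ on the strand of the gene. They lie at chr15:9529827-9530126 (minus strand, Il7r), chr13:113100932-113101231 (minus strand, Gzma), chr7:43436888-43437187 (plus strand, Nkg7) and chr9:44980382-44980681 (minus strand, Cd3g). Capitals mark TGTGGT, or ACCACA on the other strand, a word bound by RUNX factors of lymphocytes.
Il7r: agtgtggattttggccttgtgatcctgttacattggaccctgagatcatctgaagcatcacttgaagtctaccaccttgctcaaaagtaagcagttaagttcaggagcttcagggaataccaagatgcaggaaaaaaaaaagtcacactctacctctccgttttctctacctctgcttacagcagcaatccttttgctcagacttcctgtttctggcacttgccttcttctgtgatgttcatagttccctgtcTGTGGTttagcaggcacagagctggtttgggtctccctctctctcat
Gzma: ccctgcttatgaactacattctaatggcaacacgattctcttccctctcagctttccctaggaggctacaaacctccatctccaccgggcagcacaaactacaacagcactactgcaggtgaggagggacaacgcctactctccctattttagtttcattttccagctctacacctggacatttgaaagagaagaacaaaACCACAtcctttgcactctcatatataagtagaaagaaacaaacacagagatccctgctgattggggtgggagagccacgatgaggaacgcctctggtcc
Nkg7: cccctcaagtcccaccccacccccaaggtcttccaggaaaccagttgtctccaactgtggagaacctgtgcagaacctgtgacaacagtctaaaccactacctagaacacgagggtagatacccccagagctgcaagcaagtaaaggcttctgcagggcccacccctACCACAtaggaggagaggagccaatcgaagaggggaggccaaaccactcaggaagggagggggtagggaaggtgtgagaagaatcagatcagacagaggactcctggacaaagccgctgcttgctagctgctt
Cd3g: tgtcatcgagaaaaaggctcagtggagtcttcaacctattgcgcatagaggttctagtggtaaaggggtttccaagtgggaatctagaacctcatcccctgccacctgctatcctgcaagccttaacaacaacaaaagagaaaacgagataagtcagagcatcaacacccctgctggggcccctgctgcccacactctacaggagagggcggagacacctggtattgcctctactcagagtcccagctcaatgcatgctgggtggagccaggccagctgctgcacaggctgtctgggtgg

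Windows were found for 7 of the 10 genes, Cd3e, Cd3g, Gzma, Il7r, Lck, Nkg7 and Tcf7. The word TGTGGT was present in 4 of these 7 windows (Gzma, Il7r, Lck and Nkg7), against 16.8% of all 32851 windows of the same length. AGGAAG, a word of ETS factors, was present in 4 windows (Cd3e, Il7r, Lck and Nkg7), against 35.4% of all windows. TTCNNNGAA, a word of STAT factors whose open bases can take in part of the ETS word, was present in Il7r and Nkg7, against 8.3% of all windows. AGATAA, a word of the GATA factors, was present in Cd3g alone among the 7 windows, against 11.2% of all windows, and CTTTGA, a word of TCF7 and LEF1, was in 0 of 7, against 16.0%. All words were searched on both strands. The window of Nkg7, which rose, thus held the same 3 words as that of Il7r, which fell, and a match is a description of letters, not of binding.

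In FFa all 10 genes reached 1 FPKM, with a lowest value of 1.60, a median of 2.70 and a highest value of 5.53 FPKM. In each mutant 5 of the 10 reached 1 FPKM, with medians of 1.08 FPKM in KOb and 1.01 FPKM in KOa. Cd2 had the highest level of the 10 in FFa and was 7th in each mutant. Nkg7 was second in FFa and first in each mutant, where it made up 53.4% of the summed FPKM of the 10 genes in KOb and 45.7% in KOa, against 13.7% in FFa. Without Nkg7 the other 9 summed to 8.85 FPKM in KOb and 10.9 FPKM in KOa, against 24.8 FPKM in FFa. With 1 value per group, whether neighbours in these orders differ beyond the spread of libraries could not be tested.

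**Figure D1:**
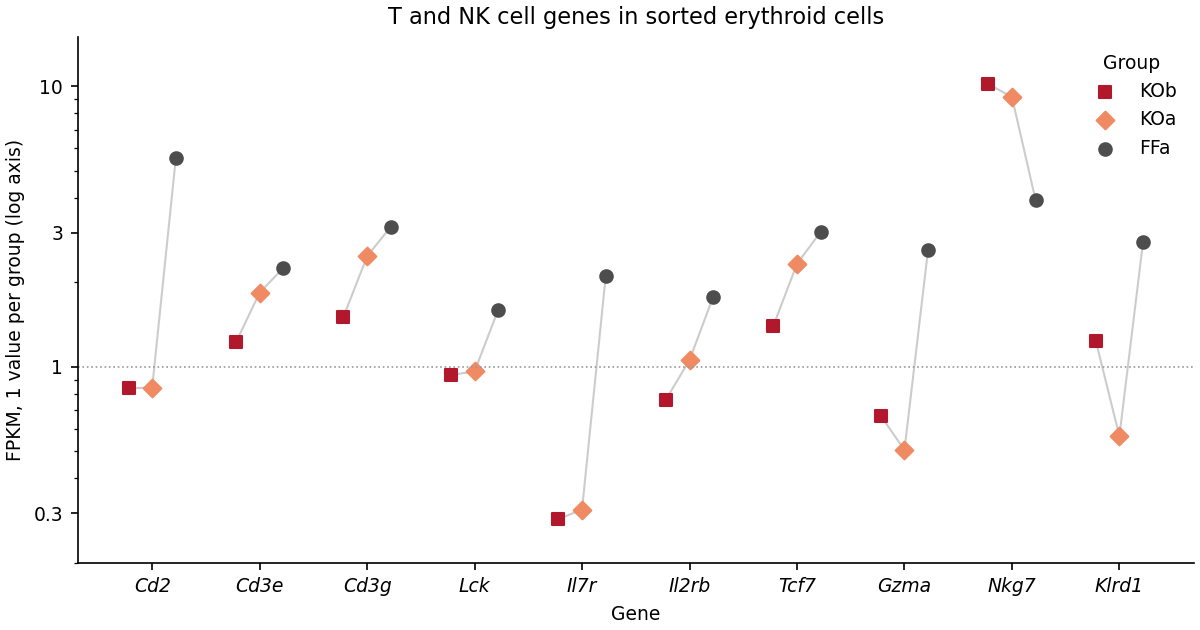
FPKM of each of the 10 T and NK cell genes on a log axis, with 1 value per group (KOb squares, KOa diamonds, FFa circles) and a dotted line at 1 FPKM. All genes but Nkg7 have their highest point in FFa, and Nkg7 stands at 10.2 in KOb and 9.16 in KOa, against 3.93 in FFa.

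In KOb, 6 of the 10 genes fell (Cd2, Cd3g, Il7r, Il2rb, Tcf7 and Gzma), 1 rose (Nkg7) and 3 were not called (Cd3e, Lck and Klrd1). All 10 were tested. Of all 10584 genes tested in KOb against FFa, 15.2% fell and 12.8% rose, and the median log2 ratio was -1.14 over the 10 genes, against -0.01 over all tested genes. In KOa, 4 of the 10 fell (Cd2, Il7r, Gzma and Klrd1), 1 rose (Nkg7) and 5 were not called, with all 10 tested. Of all 10761 genes tested in KOa against FFa, 14.1% fell and 7.99% rose, and the median log2 ratio was -0.74 over the 10 genes, against -0.08 over all. Both comparisons share the FFa libraries, and KOb differs from FFa in the TER119 gate as well, whereas KOa does not. In bulk RNA, fewer cells of a type and less RNA per cell cannot be told apart.

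For 25 of the 29 tests of the 10 genes, and for 96.0% of all tested results, the p-value in the authors' deposited table is smaller than its statistic would give as a standard normal value; the exceptions among the 10 genes are Cd2 and Il7r in each mutant against FFa, which are at the smallest deposited p. With the statistic read that way and adjusted over all tested results, Cd2 and Il7r fell and Nkg7 rose in each mutant, and the other 7 genes were not called. Under that reading 5.92% of all tested genes fell and 3.63% rose in KOb, and 4.96% fell and 2.52% rose in KOa. The calls of Cd3g, Il2rb, Tcf7 and Gzma in KOb and of Gzma and Klrd1 in KOa therefore rest on the deposited p-values.

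**Figure D2:**
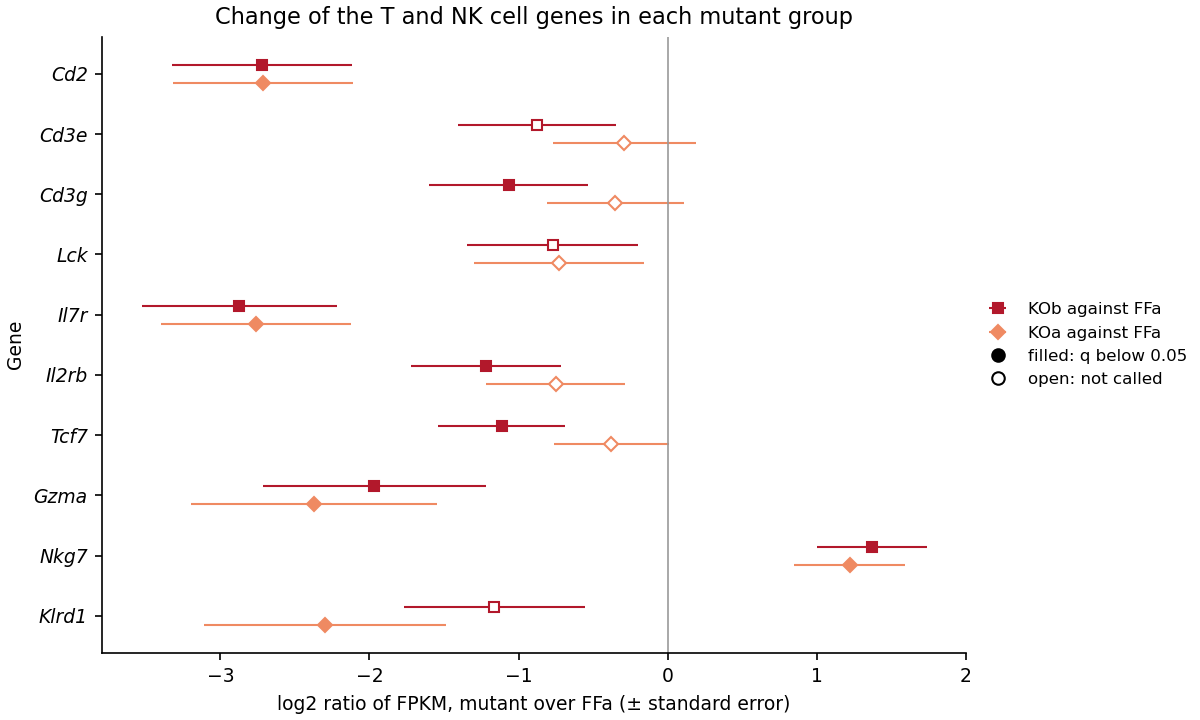
Log2 ratio of FPKM to FFa for each gene, with KOb squares above KOa diamonds, bars of 1 implied standard error, and filled symbols where q was below 0.05. Cd2 and Il7r lie furthest to the left, between -2.87 and -2.72, and Nkg7 is the gene on the right, at 1.37 in KOb and 1.22 in KOa.

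Cd2 (chromosome 3, 101275908 to 101287939 of mm10) encodes an adhesion molecule of T and NK cells that binds CD48 on other mouse cells. It had 0.838 FPKM in KOb and 0.842 FPKM in KOa, against 5.53 FPKM in FFa. The level in each mutant was about the same and well below the control, at 15.2% of FFa in KOb and in KOa. The log2 ratio was -2.72 ± 0.61 in KOb and -2.72 ± 0.60 in KOa, and in the authors' deposited table both reached the smallest q it holds, 0.000619. Between the mutants the log2 ratio was -0.01 ± 0.78.

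Cd3e (chromosome 9, 44998743 to 45009590) and Cd3g (chromosome 9, 44969572 to 44980431) encode the epsilon and gamma chains of the CD3 complex, without which the T cell receptor does not reach the surface. Cd3e had 1.22 FPKM in KOb and 1.84 FPKM in KOa, against 2.25 FPKM in FFa. Cd3g had 1.51 FPKM in KOb and 2.47 FPKM in KOa, against 3.15 FPKM in FFa. KOb had the lowest level of both genes and KOa lay between KOb and the control. Cd3g fell by 1.07 ± 0.53 in KOb on the log2 scale (q = 0.0377 in the authors' deposited table), and had a log2 ratio of -0.35 ± 0.46 in KOa (q = 0.482). The log2 ratio of Cd3e was -0.88 ± 0.53 in KOb (q = 0.0670 in the authors' deposited table) and -0.29 ± 0.48 in KOa (q = 0.552). Cd3d, the gene of the delta chain, lies between them and fell by 1.75 ± 0.72 in KOb, with 0.576 FPKM in KOb and 1.01 FPKM in KOa, against 1.94 FPKM in FFa. In KOa its log2 ratio was -0.95 ± 0.60 (q = 0.0818 in the authors' deposited table).

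Lck (chromosome 4, 129548344 to 129573641), the gene of the kinase that phosphorylates the CD3 chains, had 0.934 FPKM in KOb and 0.962 FPKM in KOa, against 1.60 FPKM in FFa. The mutants were close to each other and below the control, but neither difference passed. The log2 ratio was -0.77 ± 0.57 in KOb and -0.73 ± 0.57 in KOa, with q values of 0.0835 and 0.107 in the authors' deposited table.

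**Figure D3:**
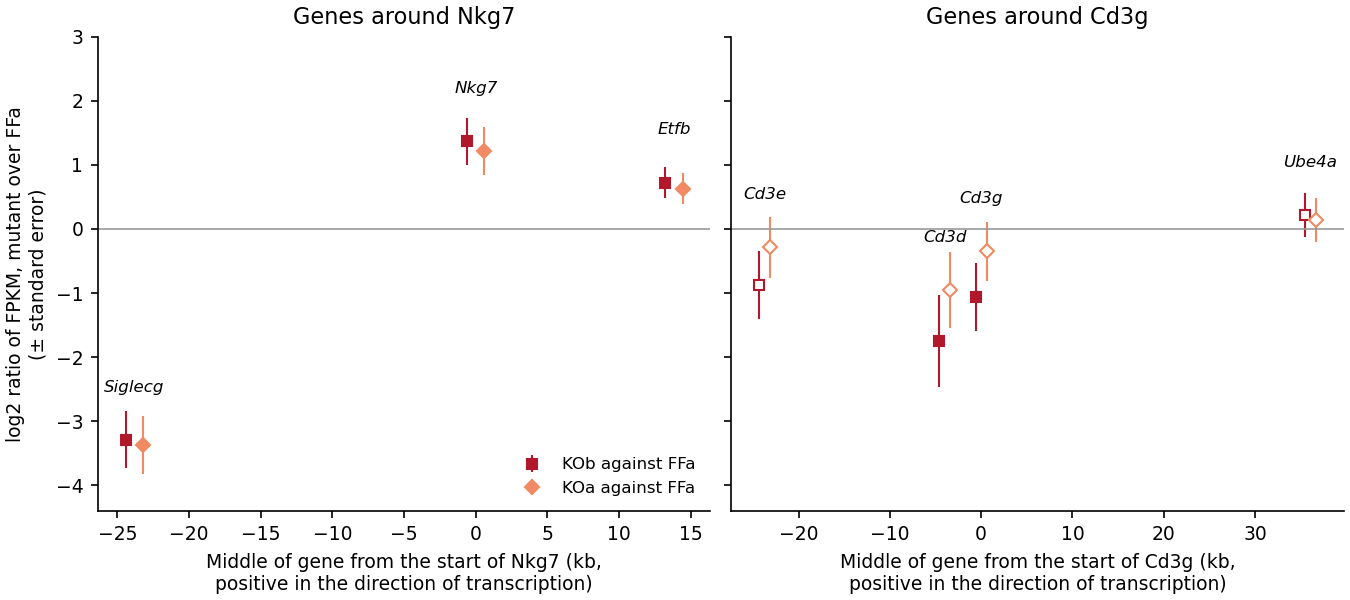
Log2 ratio of FPKM to FFa (± implied standard error) of genes within 30 kb of Nkg7 (left) and Cd3g (right), by the distance of each gene's middle from the start of the named gene, in kb along its direction of transcription. Squares are KOb, diamonds are KOa, filled symbols have q below 0.05, and genes that were not tested or were listed at 0 in FFa are not drawn. The 3 CD3 genes lie below 0 with the uncalled neighbour Ube4a near 0, and Nkg7 stands above 0 beside Siglecg, at -3.29 in KOb and -3.37 in KOa.

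Il7r (chromosome 15, 9506159 to 9529876) encodes the specific chain of the interleukin 7 receptor. It had 0.286 FPKM in KOb and 0.310 FPKM in KOa, against 2.098 FPKM in FFa. It was the lowest of the 10 genes in each mutant, at 13.6% of FFa in KOb and 14.8% in KOa. Il7r fell by 2.87 ± 0.66 in KOb and by 2.76 ± 0.64 in KOa on the log2 scale, and in the authors' deposited table q was 0.000619 for both. Between the mutants it was not tested by the authors, the only such case among the 10 genes.

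Il2rb (chromosome 15, 78480549 to 78495066) encodes the chain that the receptors of IL-2 and IL-15 share, and it marks NK cells and memory T cells. It had 0.763 FPKM in KOb and 1.06 FPKM in KOa, against 1.77 FPKM in FFa. KOb was lowest and KOa lay between. Il2rb fell by 1.22 ± 0.50 in KOb (q = 0.00443 in the authors' deposited table), while in KOa its log2 ratio was -0.75 ± 0.47 and its q of 0.0523 lay just outside the threshold.

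Tcf7 (chromosome 11, 52252604 to 52282571) encodes TCF1, a transcription factor of early T cell development and of resting T cells. It had 1.40 FPKM in KOb and 2.33 FPKM in KOa, against 3.02 FPKM in FFa. The 3 groups were again in the order KOb, KOa, FFa from low to high. Tcf7 fell by 1.11 ± 0.43 in KOb (q = 0.00161 in the authors' deposited table), and its log2 ratio in KOa was -0.38 ± 0.39 (q = 0.274). In KOb against KOa it fell by 0.74 ± 0.44 (q = 0.0436 in the authors' deposited table), and it was the 1 gene called of the 9 tested in that comparison. Of all 10468 genes tested between the mutants 6.19% were lower in KOb and 16.2% were called in either direction, so 1 of 9 is near the background. That call was lost when q was adjusted within this comparison alone.

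Gzma (chromosome 13, 113093827 to 113100981) encodes granzyme A, a serine protease of cytotoxic granules. It had 0.669 FPKM in KOb and 0.505 FPKM in KOa, against 2.61 FPKM in FFa. Both mutants were well below the control, at 25.6% of FFa in KOb and 19.3% in KOa. Gzma fell by 1.97 ± 0.75 in KOb and by 2.37 ± 0.83 in KOa, with q values of 0.0215 and 0.0151 in the authors' deposited table.

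Klrd1 (chromosome 6, 129591811 to 129598775) encodes CD94, which pairs with NKG2 proteins to form receptors of NK cells. It had 1.24 FPKM in KOb and 0.565 FPKM in KOa, against 2.78 FPKM in FFa. Here KOa was the lowest group and KOb lay between. Klrd1 fell by 2.30 ± 0.81 in KOa (q = 0.0195 in the authors' deposited table), and in KOb its log2 ratio of -1.16 ± 0.61 had a q of 0.0599. The log2 ratio of 1.13 ± 0.90 between KOb and KOa did not pass (q = 0.228 in the authors' deposited table), so a difference between the mutants was not shown.

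Nkg7 (chromosome 7, 43437138 to 43438246) encodes a membrane protein of cytotoxic granules needed for their release. It had 10.2 FPKM in KOb and 9.16 FPKM in KOa, against 3.93 FPKM in FFa. It was the 1 gene of the 10 that was higher in the mutants, 2.59-fold in KOb and 2.33-fold in KOa. Nkg7 rose by 1.37 ± 0.37 in KOb and by 1.22 ± 0.37 in KOa on the log2 scale, with q values of 0.00115 and 0.00479 in the authors' deposited table. Between the mutants its log2 ratio was 0.15 ± 0.32. In the table no other gene overlaps Nkg7. The nearest, the lens gene Lim2, had 0.362 FPKM in KOb and 0.544 FPKM in KOa and was listed at 0 in FFa; it was called higher in KOa and was not tested in KOb. The electron transfer flavoprotein gene Etfb, 5.90 kb away, rose by 0.72 ± 0.24 in KOb and by 0.63 ± 0.24 in KOa. Siglecg, a B cell lectin gene 18.8 kb away on the other side, had 0.957 FPKM in KOb and 0.904 FPKM in KOa, against 9.37 FPKM in FFa, and fell.

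Other genes that define cytotoxic lymphocytes were barely detected. Gzmb had 0.0673 FPKM in KOb and 0.146 FPKM in KOa, against 0.110 FPKM in FFa, and the perforin gene Prf1 stood between 0.101 and 0.124 FPKM in all groups, so neither was tested. Of 14 further granule and effector genes, 9 were tested in each mutant. In KOb 3 rose and 1 fell, and in KOa 3 rose and 1 fell, with list medians of 0.42 in each. Cst7 and Srgn rose in both, Unc13d in KOb only and Lamp1 in KOa only. The calls of Unc13d and Lamp1 were lost with the statistic read as standard normal. A count of 1 lower of 9 is near the share of all tested genes given above.

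Cst7, the gene of cystatin F, an inhibitor of granule proteases, had 7.20 FPKM in KOb and 5.34 FPKM in KOa, against 1.27 FPKM in FFa, and rose by 2.50 ± 0.52 and 2.07 ± 0.54 on the log2 scale. Srgn, the gene of the granule proteoglycan serglycin, had 159 FPKM in KOb and 126 FPKM in KOa, against 72.2 FPKM in FFa, and rose by 1.14 ± 0.23 and 0.80 ± 0.24. The chemokine gene Ccl5, which T and NK cells and other leukocytes use, had 11.9 FPKM in KOb and 13.5 FPKM in KOa, against 42.1 FPKM in FFa, and fell by 1.82 ± 0.26 and 1.64 ± 0.25. Cst7 and Srgn are also expressed by myeloid cells.

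Granulocyte markers moved in both directions beside these genes. Of 19 tested, 12 fell and 2 rose in KOb, and 10 fell and 2 rose in KOa, and the list summed to 13765 FPKM in KOb and 16926 FPKM in KOa, against 49724 FPKM in FFa. S100a8, not called in KOa, gave most of each sum, and without it the other 18 summed to 1687 FPKM in KOb and 2104 FPKM in KOa, against 14790 FPKM in FFa. The 2 that rose are 10.5% of those tested. That is near the 12.8% of all tested genes that rose in KOb and the 7.99% in KOa. Both were genes of early neutrophil granules. Elane and Prtn3, also on this list, stood above FFa in each mutant and were not called. Mpo, the myeloperoxidase gene, had 27.3 FPKM in KOb and 21.7 FPKM in KOa, against 8.15 FPKM in FFa. Ctsg, the cathepsin G gene, had 20.2 FPKM in KOb and 15.9 FPKM in KOa, against 3.35 FPKM in FFa. The late granule gene Ngp went the other way, with log2 ratios of -3.36 ± 0.26 in KOb and -3.16 ± 0.26 in KOa. The part of these cells in the levels of Nkg7, Cst7 and Srgn was not tested.

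**Figure D4:**
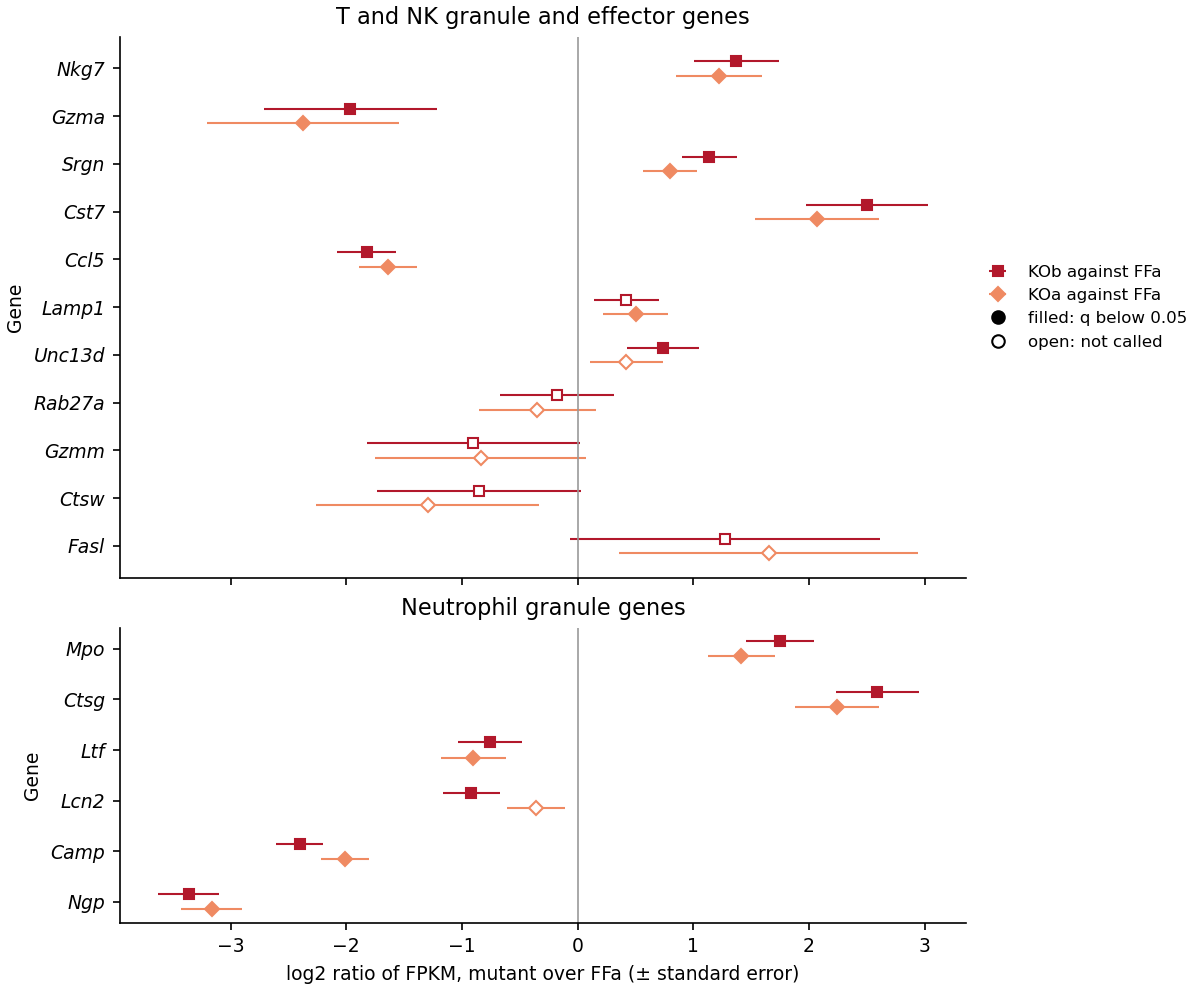
Log2 ratio of FPKM to FFa (± implied standard error) of granule and effector genes of T and NK cells (top) and of 6 neutrophil granule genes (bottom), with KOb squares, KOa diamonds and filled symbols where q was below 0.05. In the top panel Nkg7, Srgn and Cst7 lie right of 0, and Gzma and Ccl5 lie left of 0. In the bottom panel, whose genes were picked after their values were seen, Mpo and Ctsg lie right of 0 and the others left.

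Of 20 further genes of the T cell receptor and its signalling, 11 were tested in each mutant. In KOb 4 fell and 1 rose, and in KOa 2 fell and 0 rose. The count in KOa is near the share of all tested genes given above. With the statistic read as standard normal, 1 fell in each mutant, Ptprcap, and the calls of Cd3d, Cd4 and Fyn were lost. Ptprcap, which encodes a partner of the phosphatase CD45 found on lymphocytes in general, had 12.3 FPKM in KOb and 8.41 FPKM in KOa, against 42.5 FPKM in FFa, and fell in each. Fyn, a kinase gene related to Lck, fell by 0.95 ± 0.46 in KOb and by 1.35 ± 0.49 in KOa. Prkcq, the gene of protein kinase C theta, rose by 2.62 ± 0.68 in KOb, with 1.57 FPKM in KOb and 0.584 FPKM in KOa, against 0.254 FPKM in FFa. The coreceptor gene Cd4 fell in KOb, with 0.175 FPKM in KOb and 0.364 FPKM in KOa, against 0.652 FPKM in FFa, and Cd8a, at most 0.259 FPKM, was not tested. The list median was -0.95 in KOb and -0.13 in KOa.

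Among 12 partners of the IL-2, IL-7 and IL-15 receptors, 10 were tested. In KOb 2 fell and 2 rose, and in KOa 1 fell and 0 rose, which is near the share of all tested genes given above. Il2ra, the high-affinity chain of the IL-2 receptor, fell by 1.79 ± 0.48 in KOb and by 1.01 ± 0.42 in KOa. Il2rg, the gene of the common gamma chain that joins both Il7r and Il2rb, had 7.28 FPKM in KOb and 3.39 FPKM in KOa, against 4.54 FPKM in FFa, and rose by 0.68 ± 0.33 in KOb. Stat5a, which these receptors and the erythropoietin receptor activate, had 3.53 FPKM in KOb and 1.30 FPKM in KOa, against 1.51 FPKM in FFa, and rose by 1.22 ± 0.39 in KOb. Crlf2, the other gene of this list that fell in KOb, fell by 0.77 ± 0.44. With the statistic read as standard normal, the calls of Il2ra in KOa and of Crlf2 and Il2rg in KOb were lost.

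Of 14 further transcription factors of T and NK cells, 6 were tested in KOb and 7 in KOa. In KOb 3 fell and 0 rose, and in KOa 2 fell and 0 rose. Ikzf3, the gene of Aiolos, a factor of B cells as well as T cells, had 0.316 FPKM in KOb and 0.430 FPKM in KOa, against 2.83 FPKM in FFa. Ets1, used in many lymphocytes, fell by 1.58 ± 0.51 in KOb and by 1.19 ± 0.47 in KOa, and Nfil3, needed for NK cells, fell by 1.79 ± 0.74 in KOb. The calls of Ets1 in KOa and of Nfil3 were lost with the statistic read as standard normal. The T cell factor genes Bcl11b and Gata3 stood at 0.361 FPKM or below in all groups.

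Of 21 further NK receptor and adaptor genes, 8 were tested in KOb and 9 in KOa. In KOb 4 fell and 0 rose, and in KOa 3 fell and 0 rose. The 3 that fell in each were Tyrobp, Fcer1g and Fcgr3, which encode adaptors and an Fc receptor that myeloid cells share with NK cells. Tyrobp had 91.0 FPKM in KOb and 109 FPKM in KOa, against 268 FPKM in FFa. Klrk1, the NKG2D receptor gene near Klrd1, fell in KOb, a call lost under the normal reading, with 0.0690 FPKM in KOb and 0.193 FPKM in KOa, against 0.387 FPKM in FFa. Ncr1, the gene of NKp46 and a defining NK marker, had 0.313 FPKM in KOb and 0.201 FPKM in KOa, against 0.639 FPKM in FFa, and was not called. Over 12 T cell markers (Cd3e, Cd3g, Cd3d, Cd247, Cd4, Cd8a, Cd5, Cd6, Lck, Zap70, Lat and Bcl11b) the sum was 6.10 FPKM in KOb and 8.88 FPKM in KOa, against 12.0 FPKM in FFa, and over 10 NK cell markers (Ncr1, Klrb1c, Klrd1, Klrk1, Gzma, Nkg7, Il2rb, Eomes, Tbx21 and Prf1) it was 13.9 FPKM in KOb and 12.6 FPKM in KOa, against 12.97 FPKM in FFa. Nkg7 alone gave most of the NK sum in each mutant, and without it the other 9 summed to 3.71 FPKM in KOb and 3.46 FPKM in KOa, against 9.04 FPKM in FFa. Those 9 include Klrd1, Gzma and Il2rb, with 2.78, 2.61 and 1.77 FPKM in FFa, and the T cell sum includes Cd3e, Cd3g and Lck. The sums thus largely repeat members described above. Markers that stood higher than in FFa included Cd5 and Cd6 in each mutant and Klrb1c and Bcl11b in KOa. Klrb1c was not called in KOa, and Cd5, Cd6 and Bcl11b were not tested. None of these 12 and 10 markers was listed at 0, whereas among the 21 NK receptor genes 2 were listed at 0 in KOb and 3 in KOa, against 1 in FFa.

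B cell markers are given beside the 10 genes because B-lineage cells also use Il7r and Cd2. Of 20 tested, 17 fell and 1 rose in KOb, and 15 fell and 0 rose in KOa. Their sum was 34.8 FPKM in KOb and 36.6 FPKM in KOa, against 304 FPKM in FFa, which is 11.5% and 12.0% of the control. Cd79a, which encodes a signalling partner of surface immunoglobulin, had 1.74 FPKM in KOb and 0.906 FPKM in KOa, against 15.5 FPKM in FFa. Macrophage and monocyte markers fell in 16 of 17 tested in KOb and in 10 of 18 in KOa, and dendritic cell markers fell in 5 of 10 in KOb and in 4 of 9 in KOa, with 0 higher. Mast cell and basophil markers fell in 3 and rose in 2 of 9 in KOb, and fell in 3 and rose in 2 of 8 in KOa. Under the normal reading they fell in 1 and rose in 2 in KOb, and fell in 1 and rose in 0 in KOa. Of 9 tested megakaryocyte markers, KOb had 4 higher and 2 lower, and KOa had 4 higher and 1 lower. The lower counts are near the 15.2% of all tested genes that fell in KOb and the 14.1% in KOa. Under the normal reading the lower calls in KOb were lost, and KOa had 3 megakaryocyte markers higher and 0 lower. Erythroid markers fell in 8 of 18 in KOb, whose TER119 gate differs from that of FFa, and in 3 of 18 in KOa. The count in KOa is near the 14.1% of all tested genes that fell, and it was 1 under the normal reading. The part of B cells and other leukocytes in the levels of the 10 genes was not tested.

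**Figure D5:**
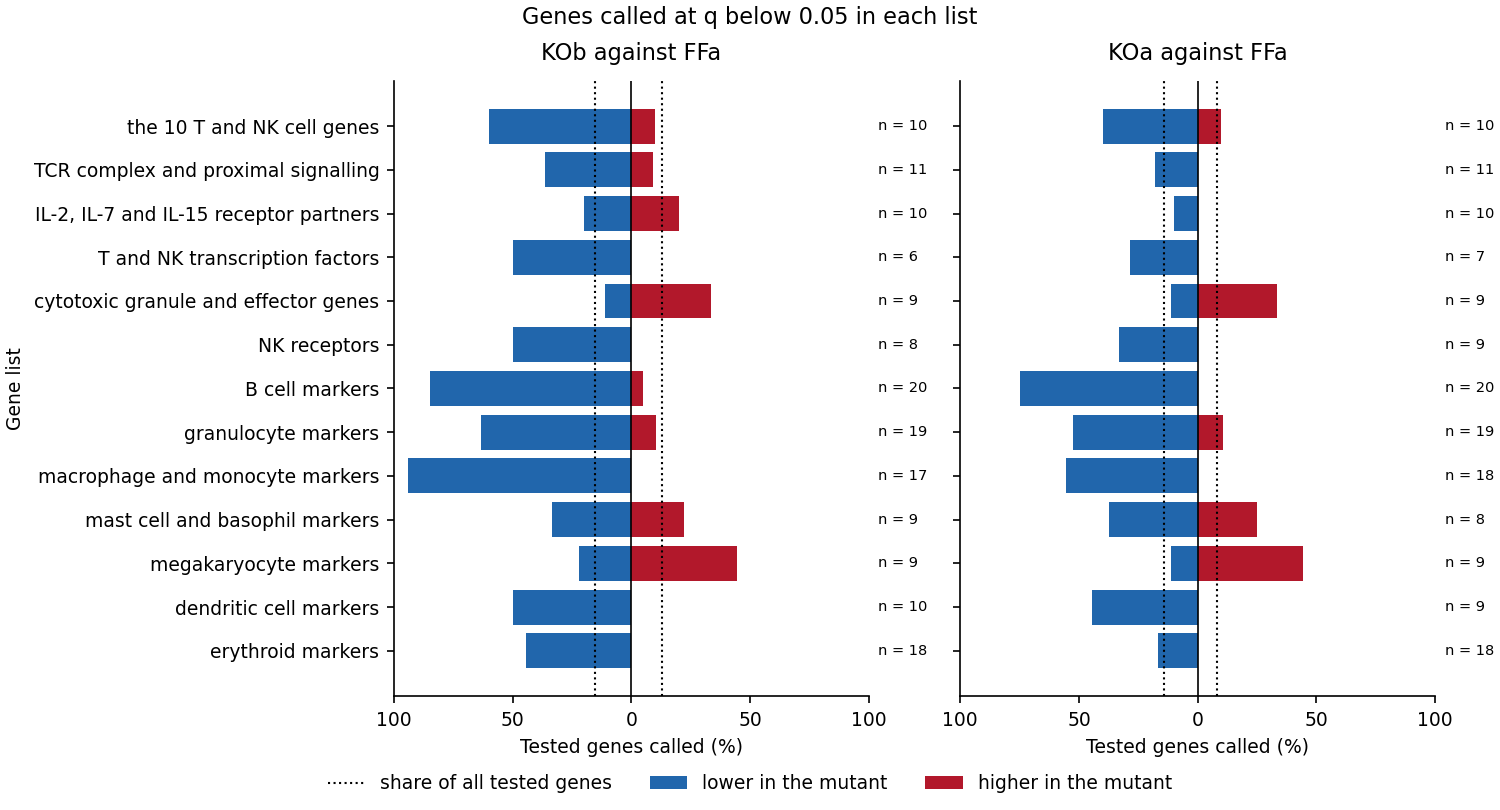
Share of tested genes called lower (blue, left) and higher (red, right) in KOb against FFa and in KOa against FFa, in percent, for the 10 genes and each list, with dotted lines at the share of all tested genes and the number tested at the right. The 10 genes pass the dotted line on the lower side in each panel (6 and 4 of 10), and B cell markers reach 17 and 15 of 20. Granule and effector genes, megakaryocyte markers, and mast cell and basophil markers pass it on the higher side in each panel. The cytokine receptor partners do so in KOb only, and the 10 genes and granulocyte markers in KOa only.

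The genes whose 3 group values were most like those of a called member were found by the distance between their 2 log2 ratios to FFa, over 8006 other genes with at least 1 FPKM in FFa and a value above 0 in every group. The gene nearest to Cd2 and to Il7r was Slfn4, a Schlafen gene of myeloid cells, with 1.62 FPKM in KOb and 1.64 FPKM in KOa, against 11.0 FPKM in FFa (distances 0.06 and 0.11). Tcf7 and Cd3g were each the third nearest gene to the other, at a distance of 0.05, but 120 genes lay within 0.25 of Cd3g and 96 within 0.25 of Tcf7. Genes nearest to Gzma were BC035044, Spns3 and Gpd1l, and 8 genes lay within 0.25 of it. Those nearest to Klrd1 were Adam15, Hist2h3b and Capn2, which are the 3 within 0.25. Sord, the sorbitol dehydrogenase gene, was nearest to Nkg7, with 41.2 FPKM in KOb and 38.8 FPKM in KOa, against 16.1 FPKM in FFa. Rere, Cyth4 and Axl were nearest to Il2rb. Within 0.25 lay 118 genes for Il2rb, 24 for Nkg7, 9 for Il7r and 8 for Cd2. A likeness over 3 group values says nothing of a common role, whether few or many genes share it.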

How the data were processed

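RNA from sorted immature erythroid cells was sequenced in 9 libraries, 3 per group. Total RNA was treated with DNase on QIAGEN columns, and NuGEN Encore Complete reagents were used for the libraries, per the labels' protocols. The submitters' processing notes name mm10 as the build and list Cuffdiff 2.1.1, TopHat2 2.0.8b and Bowtie2 2.1.0. Annotation, filters and strand use were not given in the sources used here. In the 1 table they deposited, the authors gave an FPKM per gene and group, and the log2 ratio, a test statistic (a score), a p-value and a q-value for each of 3 comparisons. Depth per library is unknown, and no interval from counts can be given. Nothing in the labels ties libraries to separate animals, so p-values may measure technical spread.

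With 1 value per group, the authors' own tests were used. The deposited q was recomputed as a Benjamini-Hochberg adjustment over 31813 results of the 3 comparisons together (largest difference 5.27e-07). The standard error is the size of the log2 ratio over that of the statistic. The adjustment was checked on simulated data. Antisense genes overlap Cd3e and Tcf7 in GENCODE M21, and with no use of strand given their reads could be mixed. Starts in the table were raised by 1 base. Named genes are the 10 members, Trim28, per list and comparison up to 3 called genes of largest absolute log2 ratio, where either group reached 1 FPKM and neither was at 0 (where none was called, the 2 of highest mean FPKM), fixed defining markers, and the 3 nearest genes by likeness to each member called against FFa. Gzmb, Prf1, Bcl11b, Gata3, Klrk1, Etfb, Siglecg, Lim2, S100a8, Ube4a, Tfrc, Mpo, Camp and the other neutrophil and granule genes of the figures were added after their values were seen, as were the motifs. So were Elane and Prtn3. The members and lists were chosen with earlier results of these data known. Python 3.11.15, pandas 2.3.3, scipy 1.17.1 and matplotlib 3.10.9 were used.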

Additional observations from a re-analysis of the deposited data

Results flagged for a closer look

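Among the 10 genes and the 5 lists of related T and NK cell genes, 50 genes were tested in KOb against KOa. Of these 5 were called, a smaller share than the 16.2% of all tested genes. The 4 with at least 1 FPKM in the higher group are given here. Their levels differed between the mutants by the authors' test. Tcf7 had a log2 ratio of -0.74 ± 0.44 between KOb and KOa (q = 0.0436 in the authors' deposited table). For Il2rg, the common gamma chain gene, the log2 ratio between KOb and KOa was 1.10 ± 0.35. For Stat5a it was 1.44 ± 0.40 and for Prkcq 1.42 ± 0.51, and the authors' deposited table gives all 3 a q of 0.000619. The calls of Tcf7 and Prkcq were lost with the statistic read as standard normal. That of Tcf7 was also lost with q adjusted within this comparison alone. The sort gate and the degree of deletion differ together between KOb and KOa and cannot be told apart.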

How the results depend on the processing

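Of 240 values for single members under 8 alternatives, 223 kept their direction and their side of the threshold. The pseudocounts, the centring on the median gene and the non-globin scaling kept the deposited call. Values under these could change direction only, so 223 of 240 overstates how far the calls were tried. With FPKM scaled to equal sums over genes other than globins, the median gene with at least 1 FPKM in both groups moved to 0.49 in KOa and 0.52 in KOb, and 3 uncalled ratios in KOa changed sign: Cd3e to 0.25, Cd3g to 0.19 and Tcf7 to 0.16, all below that median. Taking the statistic as standard normal, the members that fell numbered 2 in KOa, 2 in KOb and 0 in KOb against KOa. At a q below 0.01 they numbered 2 in KOa and 0 in KOb against KOa. In KOb against FFa that threshold lost the calls of Cd3g and Gzma and kept those of Cd2, Il7r, Il2rb and Tcf7. With q adjusted within the comparison they numbered 0 in KOb against KOa, and Klrd1 was in turn called in KOb against FFa. Over all other lists together, KOa had 11 genes higher, against 7 under the normal reading and 7 at a q below 0.01, and KOb against KOa had 15 genes lower, against 2 and 4. Of all tested genes, 7.99% rose in KOa as deposited and 2.52% under the normal reading. Shares of all genes at a q below 0.01, and between the mutants under the normal reading, were not counted. The other drops therefore cannot be set against those of all genes. Causes were not tested. Pseudocounts of 0.1 and 1 and centring on the median gene, which keep the deposited call by construction, reversed no member, and a minimum of 1 FPKM in the higher group lost no member's call. No paired analysis was possible because the deposited values hold 1 number per group and none per replicate, and leaving out a replicate was not possible for the same reason. Levels near 1 FPKM with unknown depth limit every member but Nkg7.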
